A study of Mus musculus with 8 samples.

Results

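Mouse embryonic fibroblasts (MEFs) expressing the histone mutant H3.3 K27M were compared with MEFs that had lost EED. The 4 libraries compared, 2 of K27M cells and 2 of EED-null cells, are part of a set of 8, and the comparison covered all 875 genes of the deposited table. All cells came from one culture of MEFs whose *EED* gene carries loxP sites. K27M cells were made by transducing it with a lentivirus for H3.3 K27M, and EED-null cells by a transient lentiviral Cre, after which 1 clone was picked. The other libraries, 2 of untransduced control cells and 2 of cells expressing the human PRC2 inhibitor *EZHIP* from a lentivirus, are used here only for their levels and for the shared estimate of the spread. The table holds the genes that the authors found changed by EZHIP, so neither the K27M nor the EED-null libraries were used to select genes, and genes outside the table were not analysed here. *Eed* and the H3.3 K27M transgene are not among the listed genes, and neither label could be checked on its own target.

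Polycomb repressive complex 2 (PRC2) places methyl groups on lysine 27 of histone H3. EED is the subunit that binds the finished mark and stimulates the EZH2 enzyme, and the complex falls apart without it. H3 K27M, the oncohistone of diffuse midline gliomas, leaves the complex in the cell but inhibits it, and some of the mark is retained at the sites where PRC2 is recruited, which are often CpG-rich promoters of developmental genes. The comparison asks which genes differ in expression between an inhibited and an absent PRC2.

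The deposited normalized expression is the estimated reads of a gene divided by 1 factor per library, and it is not scaled by gene length. The libraries held between 209390 (EED-null 1) and 424561 (control 2) estimated reads on the listed genes, and replicates of both groups differed by more than the sampling noise, with a chi-square per gene of 3.64 for K27M and 2.63 for EED-null. Whether replicates came from separate cultures is not stated, so p-values measure only the spread between these libraries, which may be technical. Levels are normalized expression unless stated, and each difference is K27M minus EED-null in log2(value + 1) units, in which the change of a low gene appears smaller than it is. Genes were called by limma at a Benjamini-Hochberg adjusted p under 0.05 over the 875 genes and at least a 2-fold difference. With 2 libraries on each side the smallest two-sided p of an exact permutation test is 0.333, and each call therefore depends on limma's pooling of the spread over genes and libraries. For a gene near 0 in control cells, the noise of those libraries can widen the interval and raise the p. RNA of bulk cultures was measured, in which fewer cells of a type and less RNA per cell cannot be told apart.

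K27M and EED-null cells differed in 476 of the 875 genes (54.4%). Of these, 243 (27.8%) were higher in K27M cells and 233 (26.6%) were higher in EED-null cells, and the median difference over all genes was 0.0066. Interferon-response genes stood on the K27M side, with *Oas2* at the far end (log2 difference 8.21). Transcription factors of embryonic patterning stood on the EED-null side, with *Sox2* at the far end (-8.01). At least 16-fold differences were called for 45 genes higher in K27M and 34 higher in EED-null cells. At the other end, the 95% limma interval of the difference lay within 2-fold for 233 genes, of which the most highly expressed were *Egr1*, *Cyr61*, *Cxadr*, *Igf2* and *Plagl1*. *Igf2*, a fetal growth factor, was at 2301 and 2495 in K27M and at 2650 and 2438 in EED-null cells (difference -0.09, 95% interval -0.34 to 0.17). The libraries of the groups did not overlap for 785 genes (89.7%), with K27M above for 45.5% and EED-null above for 44.2%, so a lack of overlap alone says little about a gene.

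**Figure D1:**
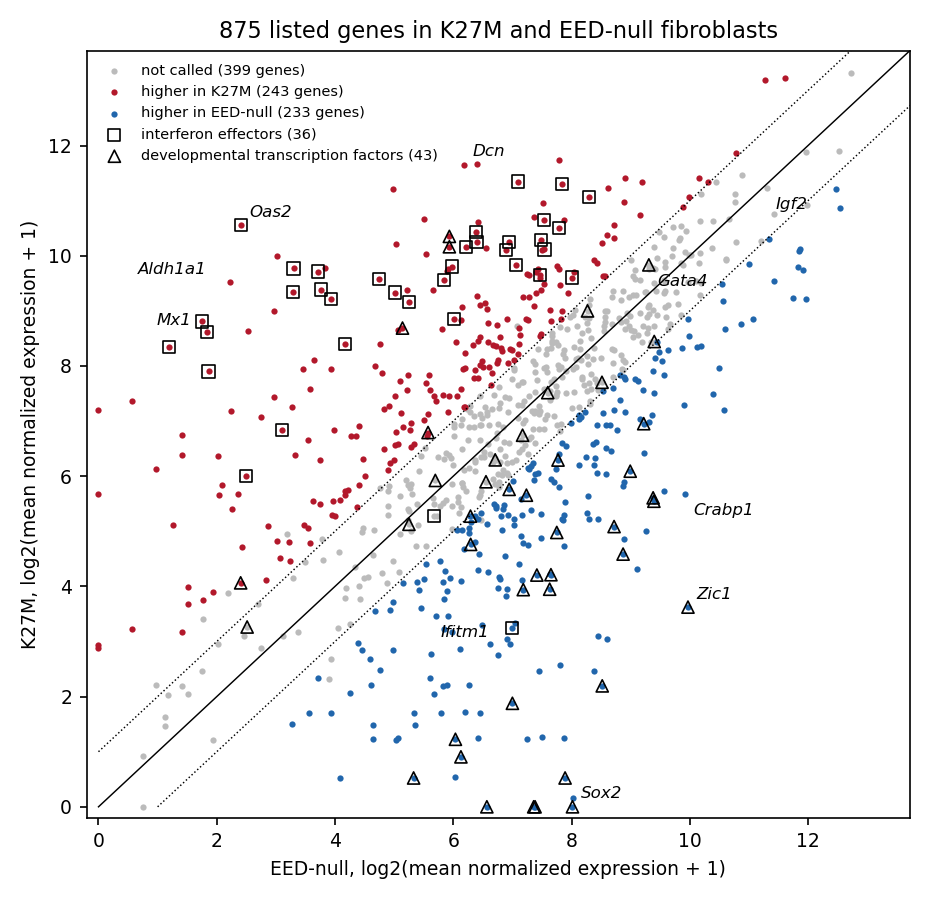
Mean normalized expression of the 875 genes as log2(value + 1), EED-null on the x axis and K27M on the y axis, n = 2 libraries each. The solid line marks equality and the dotted lines a 2-fold difference. Squares mark interferon effectors, of which 34 of 36 were called higher in K27M, and triangles mark developmental transcription factors, of which 27 of 43 were called higher in EED-null.

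Interferon signalling runs from sensors of viral nucleic acid through interferons and their receptors to effector genes that block viral growth. Of 89 effectors on the list, 36 were in the table, and 34 of these (94.4%) were higher in K27M cells, against 27.8% of all genes. Their median difference was 3.88, compared with 0.0066 for all genes. *Ifitm1*, one of a family of membrane proteins that hinder virus entry, was higher in EED-null cells, with 8.44 ± 5.38 in K27M and 126 ± 4.14 (SD, n = 2) in EED-null cells. The count of 34 did not change in any of the alternatives tried.

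*Oas2* and *Oas1g*, oligoadenylate synthetases that make a short nucleotide messenger on sensing double-stranded RNA, had the largest differences of the effector list. *Oas2* was at 1411 and 1606 in the K27M libraries and at 2.77 and 5.81 in the EED-null libraries, with a mean of 220 in the control libraries. Both K27M libraries were therefore above control and both EED-null libraries far below it. *Oas1a* was at 869 and 874 in K27M and at 12.5 and 5.20 in EED-null cells. *Oas1g* was at 308 and 339 against 0 and 2.55, at least 91.5-fold higher in K27M cells, because EED-null held at most 3 estimated reads in either library. *Oas1a* and *Oas1g* are close copies, and the division of reads between them is uncertain. *Mx1*, a GTPase that traps viral nucleoproteins, was at 390 and 397 in K27M and at 4.16 and 0.969 in EED-null cells, at least 111-fold higher.

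*Usp18*, *Rsad2* and *Ifit3*, which had higher levels than these genes in EED-null cells, were higher in K27M cells by smaller folds. *Usp18*, the protease that removes ISG15 and damps the interferon receptor, was at 1388 and 1373 in K27M and at 83.2 and 81.4 in EED-null cells (log2 difference 4.05, standard error 0.10, adjusted p = 1.65e-06 from limma). *Rsad2*, which makes a chain-terminating nucleotide, was at 1093 and 1200 against 69.3 and 77.5. *Ifit3*, which binds IFIT1 on foreign RNA, was at 2561 and 2464 against 246 and 211. The smallest called difference of the list was 1.60, for *Parp9*.

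The listed sensors and regulators stood on the same side as the effectors. Of 38 on the list 7 were in the table, and all 7 were higher in K27M cells, against 27.8% of all genes. Their median difference was 2.63. None of the 7 encodes an interferon or an interferon receptor, so that step of the pathway is not covered by this count. *Irf7*, the transcription factor that amplifies interferon production, was at 982 and 1110 in K27M and at 63.8 and 27.1 in EED-null cells. The RNA sensors *Ifih1*, *Ddx58* and *Dhx58* and the endosomal sensor *Tlr3* had differences of 3.34, 2.08, 3.67 and 2.63. *Stat2* was 6.12-fold higher and *Nlrc5*, the activator of class I genes, 2.60-fold higher. Of 9 antigen-presentation genes, 7 (77.8%) were higher in K27M cells, against 27.8% of all genes. *H2-K1*, a classical class I heavy chain, was at 9588 ± 673 (SD, n = 2) against 3131 ± 68.4, and *Tap1* and *Psmb8*, which supply its peptides, were 3.07-fold and 3.82-fold higher. *H2-Q6*, *H2-Q7* and *H2-Q8* are near-identical neighbours whose reads may be shared.

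The median level of the effectors in single libraries was 9.61 and 9.66 on the log2(value + 1) scale for K27M cells, against 5.81 and 5.93 for EED-null cells. Control libraries lay between them, at 8.35 and 8.28, and EZHIP libraries at 6.40 and 6.44. The listed genes were selected by their change between EZHIP and control cells, so the gap between those groups is not a result here. Outside the interferon and antigen lists, 195 genes were higher in K27M and 232 higher in EED-null cells among 823.

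Promoters of these genes often hold a pair of GAAA blocks, the core of the element bound by IRF factors. The letters GAAANNGAAA, or TTTCNNTTTC for the same site on the other strand, were searched from 250 bases before to 50 after each annotated gene start of the NCBIM37 (mm9) genome. They were found in 44.4% of the interferon effectors (16 of 36), 11.7% of the genes higher in K27M cells, 4.57% of those higher in EED-null cells and 3.77% of all 22095 protein-coding genes. Outside the interferon lists the share among genes higher in K27M cells was 4.55%. The lists need not hold every interferon-induced gene, so this remainder may still include some. The 150 bases before the start are printed for 5 effectors that hold the letters there, with each match in capitals, as examples with differences from 3.46 to 8.21. They lie at chr5:121199863-121200012 for *Oas2* (minus strand), chr5:121357537-121357686 for *Oas1a* (minus strand), chr6:121195774-121195923 for *Usp18* (plus strand), chr12:27141318-27141467 for *Rsad2* (minus strand) and chr19:34657871-34658020 for *Ifit3* (plus strand). In *Oas1a* the capitals are 2 overlapping matches, and *Usp18* has 1 match in each orientation. For *Mx1* and *Irf7* the letters are not in the 150 bases before the start.
Oas2: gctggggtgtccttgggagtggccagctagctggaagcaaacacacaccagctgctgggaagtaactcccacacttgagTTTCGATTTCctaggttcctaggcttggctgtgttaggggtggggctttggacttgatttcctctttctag
Oas1a: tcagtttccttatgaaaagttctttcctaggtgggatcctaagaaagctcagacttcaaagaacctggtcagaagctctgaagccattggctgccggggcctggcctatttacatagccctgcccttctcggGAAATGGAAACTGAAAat
Usp18: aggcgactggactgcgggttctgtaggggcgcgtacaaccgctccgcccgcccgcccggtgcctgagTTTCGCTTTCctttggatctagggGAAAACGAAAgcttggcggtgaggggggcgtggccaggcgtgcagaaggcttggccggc
Rsad2: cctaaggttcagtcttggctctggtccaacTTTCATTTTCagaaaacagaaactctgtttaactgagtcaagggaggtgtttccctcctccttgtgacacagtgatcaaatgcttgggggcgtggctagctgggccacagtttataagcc
Ifit3: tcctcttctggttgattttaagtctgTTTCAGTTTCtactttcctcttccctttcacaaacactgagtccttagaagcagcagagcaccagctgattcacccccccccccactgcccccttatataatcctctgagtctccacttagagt

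**Figure D2:**
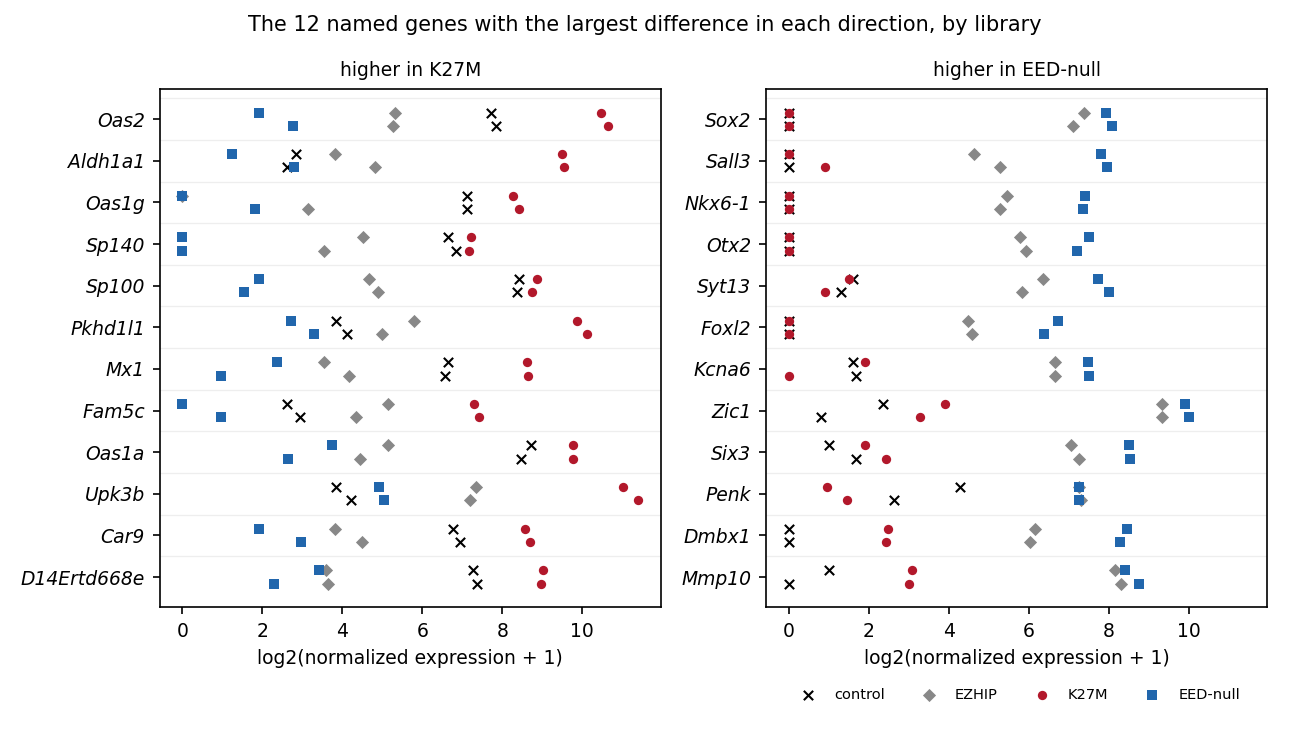
Normalized expression of the 12 named genes with the largest difference in each direction, by library, on the log2(value + 1) scale. Each row holds 2 points per group, 1 for each library. K27M points lie to the right of EED-null points for all 12 genes of the left panel and to the left for all 12 of the right panel.

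Outside the interferon lists, the genes furthest on the K27M side included *Aldh1a1*, *Pkhd1l1*, *Fam5c*, *Upk3b* and *Car9*. *Aldh1a1*, which makes retinoic acid, was at 722 and 750 in K27M and at 1.39 and 5.95 in EED-null cells, with 5.66 ± 0.702 (SD, n = 2) in control cells. *Upk3b*, a uroplakin of urothelium and mesothelium, was at 2065 and 2700 in K27M and at 29.1 and 32.0 in EED-null cells. *Car9*, a carbonic anhydrase induced by hypoxia, was at 377 and 412 against 2.77 and 6.78. *Sp140* and *Sp100*, components of nuclear bodies that belong to 1 gene family, were at least 41.2-fold and 126-fold higher in K27M cells. *Sp100* is one of the 34 interferon effectors counted before, while *Sp140* is not on the interferon lists. They lie beside *Sp110* on chromosome 1 (87473474 to 87606573), and reads may be shared within this family. Unlike *Aldh1a1*, *Sp140*, *Sp100* and *Car9* were well expressed in control cells, at 107, 336 and 116.

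The EED-null side held many transcription factors that pattern the embryo. Of 43 in the table, 27 (62.8%) were higher in EED-null cells, against 26.6% of all genes, and 5 were higher in K27M cells, or 3 without EED-null library 1. Their median difference was -2.27. *Sox2*, a factor of pluripotent and neural progenitor cells, was at 245 and 270 in the EED-null libraries and listed at 0 in both K27M and both control libraries, which makes it at least 95.4-fold higher in EED-null cells. *Otx2*, needed for the forebrain and midbrain, was at 180 and 146 against 0 and 0, at least 60.4-fold higher. *Nkx6-1*, of ventral spinal cord and beta cells, was at 169 and 163 against 0 and 0, and *Foxl2*, of the ovary and eyelid, at 105 and 82.4 against 0 and 0. These 4 genes were not detectable in K27M cells at this depth. In EZHIP cells *Sox2* was at 151 ± 20.4 and *Foxl2* at 22.1 ± 1.06 (SD, n = 2).

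Other factors were detected in K27M cells but stayed far below EED-null cells. *Zic1*, a zinc-finger factor of the neural plate and somites, was at 13.9 and 8.74 in K27M and at 968 and 1035 in EED-null cells. *Six3*, of the eye field, was at 2.78 and 4.37 against 360 and 371. *En2*, of the midbrain-hindbrain boundary, was at 25.0 and 21.0 against 456 and 479, and *Pitx1*, of the hindlimb, at 48.2 and 47.2 against 695 and 636. Family members were not alike in size. *Zic2* was at 122 and 123 in K27M and at 604 and 586 in EED-null cells, a 4.85-fold difference where *Zic1* had 88.4-fold. *Dmbx1*, a homeobox gene outside the list, was at 4.64 and 4.37 against 351 and 310. Genes of other kinds had differences of the same size, among them *Syt13*, a synaptotagmin (-6.65), and 1 predicted gene model (-7.86).

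A few factors departed from this order. *Gata4*, of heart and gonad, was at 863 and 960 in K27M and at 632 and 633 in EED-null cells (difference 0.52, 95% interval -0.25 to 1.30, adjusted p = 0.174 from limma), after 0.513 ± 0.726 (SD, n = 2) in control cells. The spread behind this interval is taken over all 8 libraries, including control libraries near 0. The interval does not describe the K27M and EED-null libraries alone. The 5 factors higher in K27M cells were *Bnc1*, *Wt1*, *Foxo6*, *Heyl* and *Etv4*. *Wt1*, of kidney, gonad and mesothelium, was at 1013 and 1277 in K27M and at 58.2 and 62.0 in EED-null cells, from 0.369 ± 0.522 (SD, n = 2) in control cells. *Bnc1*, of germ cells and squamous epithelium, was at 1185 and 1424 against 58.2 and 62.0. The log2 differences were 4.22 for *Wt1* and 4.41 for *Bnc1*, whose EED-null values are equal after rounding, and neither gene held more than 1 read in a control library.

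*Hox* genes, which specify position along the body axis, gave no member on the K27M side. Of the 8 in the table, 4 were higher in EED-null cells, *Hoxd13*, *Hoxb13*, *Hoxd10* and *Hoxc13*. *Hoxd13* was at 126 and 149 in K27M and at 658 in both EED-null libraries, and at 0 in control cells. *Hoxd10*, its neighbour on chromosome 2, was at 66.8 and 70.8 against 153 and 155. *Hoxc13* (142 ± 2.95 against 297 ± 10.3, SD, n = 2) had an adjusted p of 0.0462 from limma, and 8 of the alternatives ended its call. *Hoxb9*, *Hoxa5*, *Hoxa11* and *Hoxc8* were not called, with differences of -0.91, -0.38, -0.26 and -0.07.

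**Figure D3:**
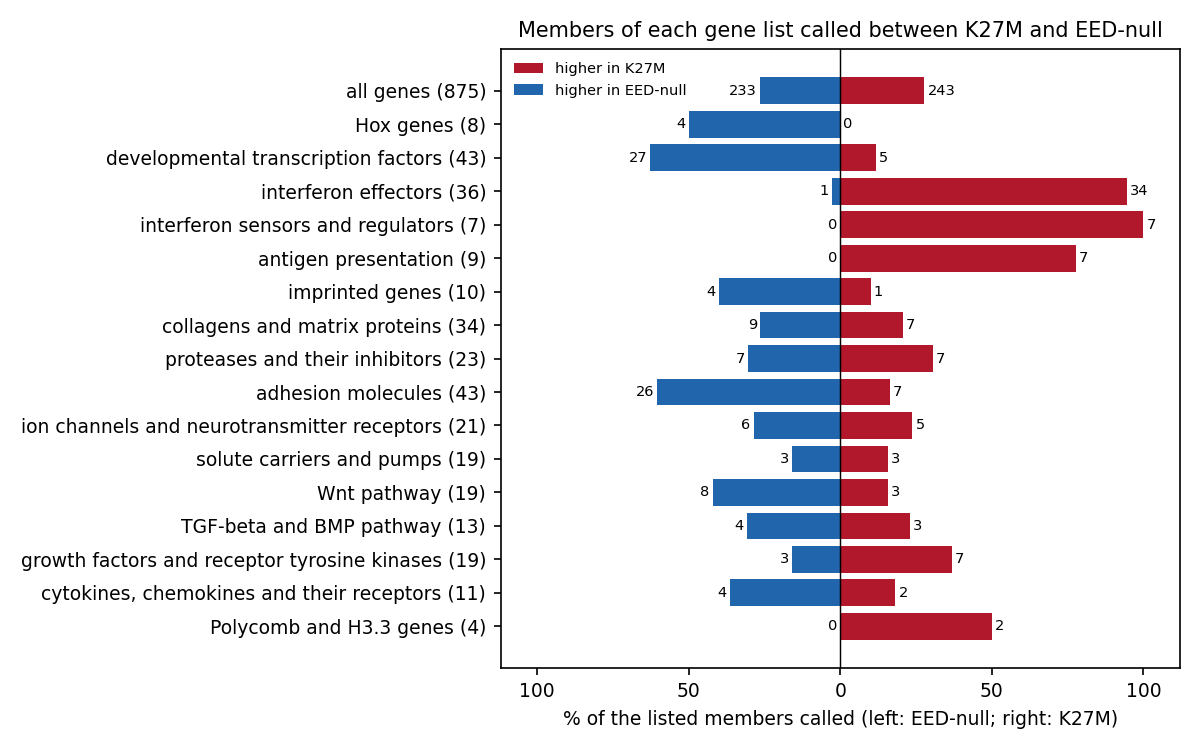
Share of the listed members of each gene list that limma called between K27M and EED-null cells, drawn to the right for genes higher in K27M and to the left for genes higher in EED-null. Numbers beside the bars are counts of genes and the number in parentheses is how many members the table holds. The bars of all genes, at the top, reach 27.8% and 26.6%.

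The upstream sequences were also compared in CpG content, a sequence feature of sites to which PRC2 is recruited. In the window from 250 bases before to 50 after the start, genes higher in K27M cells held a median of 11 CpG dinucleotides, genes higher in EED-null cells 18 and genes not called 19. Genes higher in EED-null cells were thus no richer than genes not called. Among genes at most at 3 on the log2 scale in control cells the medians were 12, 16 and 21, in the same order. The median was 11 over all 22095 protein-coding genes, 25 for the developmental transcription factors and 3.5 for the interferon effectors. Outside the interferon lists it was 12 for genes higher in K27M cells. The 150 bases before the start are shown for 4 genes higher in EED-null and 2 higher in K27M cells, with each CG in capitals. They lie at chr3:34548777-34548926 for *Sox2* (plus strand), chr5:102094246-102094395 for *Nkx6-1* (minus strand), chr9:98855876-98856025 for *Foxl2* (plus strand), chr9:91260649-91260798 for *Zic1* (minus strand), chr19:20676301-20676450 for *Aldh1a1* (plus strand) and chr5:136514216-136514365 for *Upk3b* (plus strand). The capitals mark 14, 13, 14, 22, 1 and 0 CpG. Single genes did not follow the medians throughout. The same stretch held 5 CpG in *Otx2* and in *Six3*, both higher in EED-null cells, but 8 in *Pkhd1l1* and 12 in *Wt1*, both higher in K27M cells.
Sox2: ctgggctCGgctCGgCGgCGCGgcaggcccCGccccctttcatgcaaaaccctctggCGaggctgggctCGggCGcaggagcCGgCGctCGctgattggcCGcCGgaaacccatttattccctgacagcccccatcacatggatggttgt
Nkx6-1: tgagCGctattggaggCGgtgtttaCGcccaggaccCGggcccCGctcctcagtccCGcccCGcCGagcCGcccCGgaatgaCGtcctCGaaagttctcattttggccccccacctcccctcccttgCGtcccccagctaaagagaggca
Foxl2: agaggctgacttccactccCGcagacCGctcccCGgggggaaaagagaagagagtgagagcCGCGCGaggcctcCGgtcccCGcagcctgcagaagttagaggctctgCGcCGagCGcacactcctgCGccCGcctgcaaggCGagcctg
Zic1: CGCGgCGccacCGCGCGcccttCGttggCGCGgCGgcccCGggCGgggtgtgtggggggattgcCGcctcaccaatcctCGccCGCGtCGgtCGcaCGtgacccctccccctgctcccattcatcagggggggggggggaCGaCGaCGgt
Aldh1a1: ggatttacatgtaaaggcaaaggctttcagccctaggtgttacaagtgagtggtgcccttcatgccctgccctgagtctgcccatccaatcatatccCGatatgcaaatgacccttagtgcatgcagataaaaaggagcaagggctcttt
Upk3b: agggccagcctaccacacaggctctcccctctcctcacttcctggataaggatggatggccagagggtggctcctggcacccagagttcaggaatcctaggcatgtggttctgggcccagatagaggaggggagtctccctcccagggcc

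**Figure D4:**
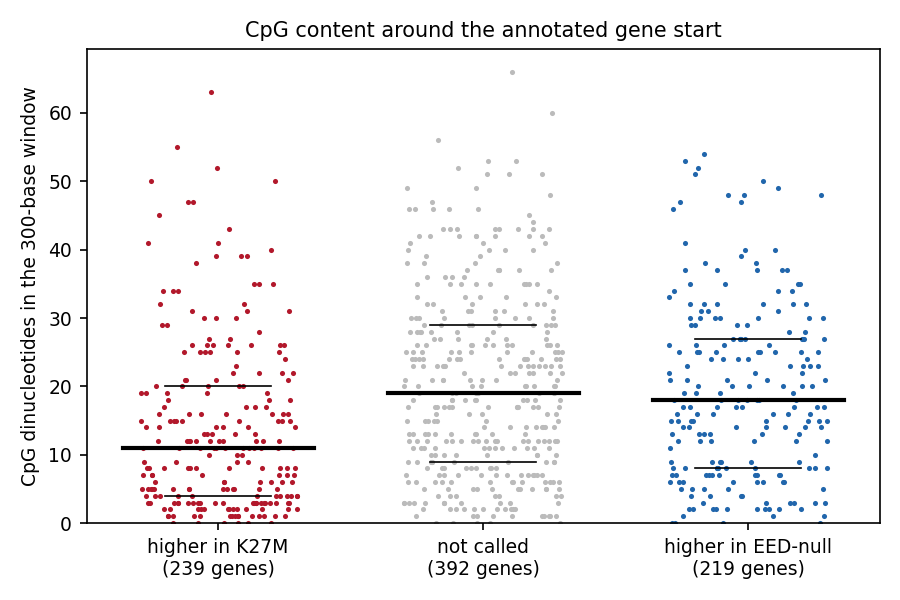
CpG dinucleotides in the 300-base window around the annotated start, 1 point per gene, for genes higher in K27M (239 genes with a window), not called (392) and higher in EED-null (219). Thick bars are medians, at 11, 19 and 18, and thin bars are quartiles.

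The directions were also counted by the level of a gene in control cells and by its direction in EZHIP cells. Genes higher in EZHIP than in control cells were divided by their control level into silent, low and higher classes, with limits of 3 and 5.5 on the log2 scale. Neither division uses the K27M or EED-null libraries. Of 147 silent genes, 75 (51.0%) were higher in EED-null and 34 (23.1%) higher in K27M cells, against 26.6% and 27.8% of all genes. Their median difference was -1.15. Of 133 low genes the counts were 48 (36.1%) and 38 (28.6%), with a median of -0.25. Of 215 genes above both limits they were 46 (21.4%) and 35 (16.3%), both below the shares of all genes, with a median of -0.09. By control level alone, the 171 low genes were even, with 56 higher in K27M and 53 higher in EED-null cells. Of the genes lower in EZHIP cells, 136 of 380 (35.8%) were higher in K27M and 64 (16.8%) higher in EED-null cells. The interferon and antigen lists supplied 48 of the 136. Among the other 329 genes 88 (26.7%) were higher in K27M, close to the 27.8% of all genes, and 64 (19.5%) higher in EED-null cells. These 329 include *Sp140* and need not be free of interferon-induced genes. Among the silent genes, those on the K27M side were led by *Aldh1a1* and *Fam5c*.

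**Figure D5:**
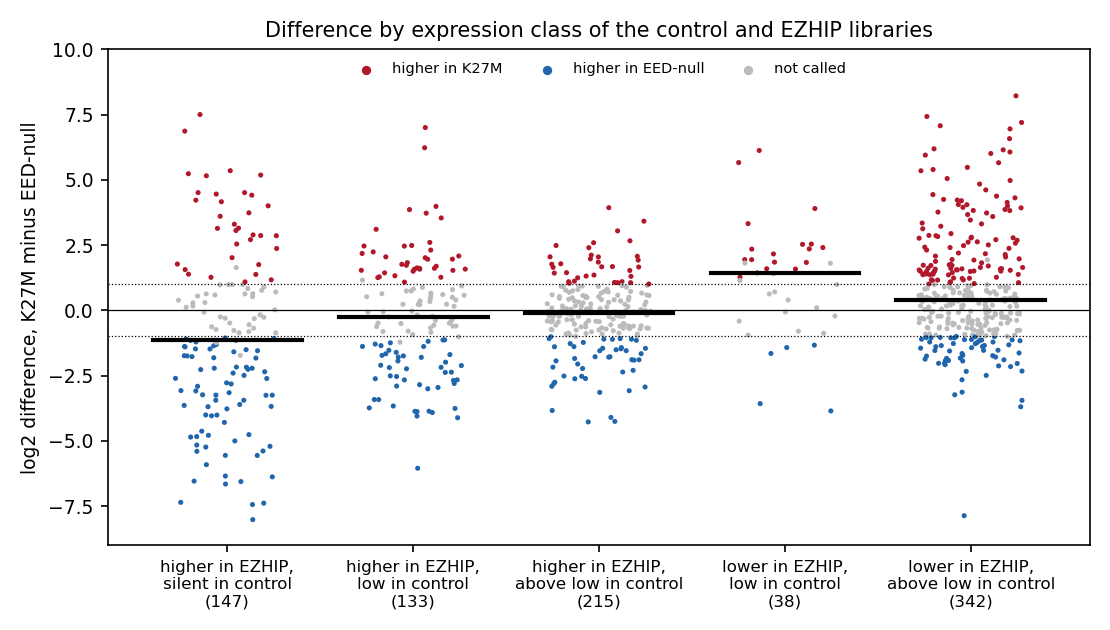
Log2 difference, K27M minus EED-null, of each gene in 5 classes set by its direction in EZHIP cells and its level in control cells, with the number of genes under each class. Points are genes coloured by call, black bars are medians and dotted lines mark a 2-fold difference. The median is -1.15 for the genes silent in control and 0.41 for those lower in EZHIP and above low in control.

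Adhesion and axon guidance molecules leaned to EED-null cells, with 26 of 43 (60.5%) higher there and 7 (16.3%) higher in K27M cells, against 26.6% and 27.8% of all genes. The 12 listed protocadherins of the gamma cluster, cell-surface proteins by which neurons recognise themselves, were all higher in EED-null cells, with differences from -2.49 to -1.10. They share constant exons, so their reads may be split among them and they are not 12 independent measurements. Without them, 14 of 31 adhesion genes (45.2%) were higher in EED-null and 7 (22.6%) higher in K27M cells. *Robo1* and *Robo2*, receptors of SLIT proteins, were 5.04-fold and 9.64-fold higher in EED-null cells, with *Robo1* at 126 in both K27M libraries and at 645 and 625 in EED-null cells. *Slit3*, one of their ligands, stood on the opposite side at 1610 and 2354 against 202 and 163. The plexins, receptors of semaphorins, stood on both sides, with *Plxna2* and *Plxnc1* higher in EED-null and *Plxna4* higher in K27M cells. *Plxna4* was at 2704 and 3760 in K27M and at 83.2 and 84.3 in EED-null cells, while *Plxnc1* was at 30.9 ± 5.71 against 611 ± 27.5 (SD, n = 2).

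The matrix genes showed no common direction, with 7 of 34 (20.6%) higher in K27M and 9 (26.5%) higher in EED-null cells. The shares of all genes were 27.8% and 26.6%. *Dcn*, the proteoglycan decorin that binds collagen fibrils, was at 3192 and 3255 in K27M and at 69.3 and 73.6 in EED-null cells. *Eln*, the elastin of elastic fibres, was at 1388 and 1750 against 73.5 and 95.9, and *Col14a1*, a fibril-associated collagen, at 770 and 994 against 13.9 and 12.6. *Col3a1*, a fibrillar collagen of loose connective tissue, was instead lower in K27M cells, at 2206 and 2517 against 5733 and 5641. In EED-null cells all 4 lay below the control means.

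Of 23 proteases and inhibitors, 7 (30.4%) were higher on each side, close to the 27.8% and 26.6% of all genes. *Mmp13*, *Mmp12*, *Mmp3* and *Mmp10*, metalloproteinases encoded side by side on chromosome 9 (7272514 to 7510238), were all higher in EED-null cells. *Mmp10* was at 7.42 and 6.99 in K27M and at 341 and 435 in EED-null cells, and *Mmp13* at 34.3 and 38.5 against 316 and 310. *Fap*, the serine protease of activated fibroblasts, was higher in K27M cells, at 162 and 104 against 2.77 and 8.72. Called genes no more than 100 kb apart and in the same direction formed 20 groups with 46 genes higher in K27M cells. The EED-null side had 8 groups with 18 genes. Many of the K27M groups hold interferon or antigen genes described above. Listed genes that lie close together without a shared call were not counted, so these groups give no separate result on position. By chromosome, the median difference ranged from -0.88 on chromosome 13 to 0.66 on chromosome 12.

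Signalling genes differed member by member. Of 19 Wnt pathway genes, 8 (42.1%) were higher in EED-null and 3 (15.8%) in K27M cells, against 26.6% and 27.8% of all genes. The ligands *Wnt6* and *Wnt10a*, the receptor *Fzd1*, the nuclear factor *Lef1* and the antagonist *Sfrp1* were higher in EED-null cells, by 6.08-, 2.55-, 3.72-, 13.6- and 4.29-fold. The ligand *Wnt5a*, the receptor *Fzd4* and *Rspo1*, which potentiates Wnt signals, were higher in K27M cells by 3.32-, 2.74- and 3.46-fold. Of 13 TGF-β and BMP genes, 4 (30.8%) were higher in EED-null and 3 (23.1%) in K27M cells, close to the shares of all genes. Without EED-null library 1, 5 were higher in K27M cells. *Inhbb*, a subunit of activin and inhibin, was at 60.3 and 55.9 in K27M and at 495 and 452 in EED-null cells, while *Fst*, which binds activin, was at 272 and 270 against 95.7 and 81.4.

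Of 19 growth factors and receptor tyrosine kinases, 7 (36.8%) were higher in K27M and 3 (15.8%) in EED-null cells, against 27.8% and 26.6% of all genes. Over the alternatives the counts ranged from 5 to 9 and from 3 to 5. *Kdr*, a receptor of VEGF, was at 157 and 222 in K27M and at 11.1 and 10.7 in EED-null cells. *Gdnf*, a neurotrophic factor, was at 9.27 and 5.25 against 122 and 117. Among 11 cytokine and chemokine genes the counts were 2 (18.2%) and 4 (36.4%), in the same order, against 27.8% and 26.6% of all genes. *Cxcr4*, the receptor of CXCL12, was at 5.56 and 4.37 in K27M and at 243 and 204 in EED-null cells, and the cytokine *Lif* at 210 and 244 against 45.7 and 48.5.

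Among 10 imprinted genes, 4 (40.0%) were higher in EED-null cells (*Sfmbt2*, *Rtl1*, *Asb4* and *Mest*), against 26.6% of all genes. Only *Dcn* (10.0%) was higher in K27M cells, against 27.8% of all genes. Without K27M library 1, or without EED-null library 1, the counts were 2 and 2. *Sfmbt2*, whose product binds methylated histones, was at 55.7 and 42.0 in K27M and at 313 and 309 in EED-null cells. *Rtl1*, a placental gene derived from a retrotransposon, lost its call in 8 of the alternatives. The list of Polycomb and H3.3 genes had 4 members in the table. It also holds *Cdkn1a*, the cell cycle inhibitor p21, which is itself neither a Polycomb nor an H3.3 gene. *Cdkn1a* was at 1141 and 1047 in K27M and at 195 and 167 in EED-null cells. *Pcgf5*, a subunit of variant PRC1, was 2.56-fold higher in K27M cells and was the only other member called. *Phf19*, a PRC2 accessory subunit, and *Scml2* were not called, with differences of 0.62 and 0.53. Of 21 ion channel genes 5 (23.8%) were higher in K27M and 6 (28.6%) in EED-null cells, close to the 27.8% and 26.6% of all genes. On the EED-null side, *Kcna6* and *Kcna1*, neighbouring potassium channel genes, had differences of -6.54 and -3.09. Of 19 solute carriers and pumps 3 (15.8%) were called in each direction, against 27.8% and 26.6% of all genes.

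Markers of cell types were checked in the same libraries. Of 18 fibroblast markers 3 were listed, *Col3a1*, *Dcn* and *Fap*, with summed levels of 5560 to 5876 in K27M, 5723 to 5805 in EED-null and 17719 to 18112 in control libraries. The members went opposite ways, with *Col3a1* higher in EED-null cells and *Dcn* and *Fap* higher in K27M cells. Of 12 epithelial markers, *Epcam* and *Krt14* were listed, with sums of 109 to 141 in K27M, 24.4 to 43.0 in EED-null and 3.69 to 6.16 in control libraries. *Kdr* was the only listed marker of 12 for endothelial cells. *Stmn2* for neurons (12.7 ± 3.08 in K27M and 56.6 ± 23.9 in EED-null cells, SD, n = 2) and *Sox9* for cartilage (26.1 ± 1.09 and 77.4 ± 8.11) were higher in EED-null cells. The bone markers *Alpl* and *Spp1* were not called. None of the markers for smooth muscle, skeletal muscle, blood, glia, fat and germ cells is in the table, so these cell types could not be checked. The part of cell composition in the differences was not tested, and H3.3 K27M expression, EED loss and the history of each line or clone cannot be told apart.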

How the data were processed

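Total RNA of MEFs was sequenced after depletion of ribosomal RNA, with 2 libraries in each of the 4 groups. Reads were aligned by the authors to an mm9 transcriptome and quantified with RSEM (version 1.2.4 in the submitters' processing notes), and EBSeq gave the changed genes. The signal deposited is the estimated reads of each gene divided by 1 size factor per library. RNA of another cell line was spiked in, and whether it entered the size factors is not stated. Whole reads made up 71.8% to 82.3% of a library's values, so no count model was fitted.

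Groups were taken from the sample labels. The test was limma 3.58.1, run in R 4.3.3 on log2(value + 1) with 1 mean per group over all 8 libraries and the contrast K27M minus EED-null. A group with at most 3 estimated reads in both libraries was treated as at the limit of detection, and the fold is then a lower bound. The procedure was tested on simulated data. Values were also tabulated with Python 3.11.15. Gene starts and sequences came from NCBIM37, on which 850 of 875 genes had 1 locus. The named genes are the 12 with the largest difference in each direction without predicted models, up to 4 called members of each list (every *Hox*, interferon and imprinted gene may be given), 5 abundant genes with an interval within 2-fold, leading genes of each control class, neighbouring genes, *Zic1*, *Zic2*, *Gata4* and the cell type markers. Predicted models called numbered 15 higher in K27M and 9 higher in EED-null cells. *Robo1*, *Robo2*, *Plxna2*, *Fst*, *Wnt5a*, *Fzd1*, *Fzd4*, *Rspo1*, *Wnt10a*, *Col3a1*, *En2*, *Pitx1*, *Bnc1*, *Wt1*, *Foxo6*, *Heyl*, *Etv4*, *H2-K1*, *Tap1*, *Mmp3*, *Mmp12*, *Sp110*, *Phf19* and *Scml2* were named after their values were seen. The members and lists were chosen with earlier results of these data known.

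Alternatives were pseudocounts of 0.1 and 5, a mean of at least 5, rescaled libraries, only the 4 libraries compared, a replicate block, a variance trend, the adjusted p alone, a test against 1.5-fold and each library left out.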

Additional observations from a re-analysis of the deposited data

How the results depend on the processing

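The number of called genes stayed between 441 and 481 under the alternatives other than the adjusted p alone, which gave 679 genes. With each library left out in turn, 457 to 476 genes were called, 227 to 245 higher in K27M and 214 to 234 higher in EED-null cells. Of the 476 genes, 413 kept the call in all 8 of these fits and 0 changed sign. Rescaling on the listed genes gave 235 higher in K27M and 242 higher in EED-null cells. The test against 1.5-fold gave 229 and 212. Of 91 named genes, 83 kept their side of the threshold in all alternatives run on them, and the exceptions included *Areg*, *Hoxc13*, *Rtl1*, *Bmp7*, *Slc22a23*, *Kcna1* and *Zic2*. The causes were not tested.

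A replicate block gave 475 genes, 242 higher in K27M and 233 higher in EED-null cells. Samples share only a replicate number: the deviations of same-numbered K27M and EED-null libraries correlated with r = 0.0457, and other pairs of groups gave -0.0893 to 0.105. Precision is limited by 2 libraries per group and, for genes near 0, by the value of 3 reads, 2.70 in K27M and 3.53 in EED-null cells.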
